A study of Mus musculus with 9 samples.

Results

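The H3K27ac anchor bins are the 2 kb stretches of the mouse genome that end at least 1 interaction called by MNase HiChIP for H3K27ac, the histone mark of active promoters and enhancers. They were taken from the deposited interaction list of untreated cells and from the list of cells treated for 12 h with IAA, an auxin. A bin was a member if it was an anchor in either list, which gave 33558 bins of the 57523 bins that hold an anchor of any of the 4 lists in the series. The untreated list held 27304 of them and the IAA list 23082, with 16828 bins in both lists, 10476 in the untreated list only and 6254 in the IAA list only.

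All cells were E14 mouse embryonic stem cells of the genotype CTCF AID, an auxin-inducible degron on CTCF that the untreated cells carry too, grown in serum-free medium with LIF, PD0325901 and CHIR99021. H3K27ac was profiled in 2 untreated libraries and in 2 libraries after IAA, and the CTCF list (2 libraries) and the RAD21 list (3 libraries) come from untreated cells of the same line. Each list is pooled over its libraries, so the spread between replicates is unknown, nothing was tested between conditions, and no interval covers that spread. Intervals of the count ratio of a single bin cover counting error, and those of shares and medians treat bins as independent draws, which bins of the same libraries and their partners are not. The labels do not say how many clones the line comprises, and the level of CTCF protein after IAA was not analysed here.

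CTCF is a zinc-finger protein that binds DNA at a long directional motif and halts cohesin, the ring complex that contains RAD21 and extrudes chromatin loops. Loops held at CTCF sites usually run from the side to which the motif points. Active promoters and enhancers carry H3K27ac and contact each other over long distances, at some loci with the help of CTCF bound nearby. For each bin 4 quantities were compared, namely Coverage (a whole number given for each bin, taken here as its reads), the number of partners (other bins to which it was joined in the list), the summed contact count over those partners and the distance to the farthest partner. The sources used here do not define Coverage or the reads that enter it, and its counting intervals rest on that reading.

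A match to the 14-base CTCF core motif, with up to 1 mismatch and on either strand, was present in 5.42% of all 2 kb bins of the genome and in 14.3% of the anchor bins in either list. The following stretches of 30 bases, read on the strand of the motif from GRCm38 and printed 5′ to 3′ with the core match in capitals, come from the 7 bins that are named below for their differences, lie in the CTCF list and hold a single match. They are shown to set the direction of the motif beside the listed H3K27ac partners on the side to which the capitals point. These went from 27 to 9 at Bcl2l1, from 8 to 3 at Mtf1 and from 9 to 0 at Slc23a3. They numbered 2 and 3 at the bin near Nufip2, 2 and 2 at Gm42743, 1 and 1 at the bin near Tex264 and 0 and 0 at Scarna2.
Bcl2l1 start-site bin, chr2:152830698-152830727, minus strand: cctgactcCCAGTAGGAGGCGGagagccaa
Mtf1 start-site bin, chr4:124802053-124802082, plus strand: gggactggCCAGTAGGTGGCGCtgaccctt
Slc23a3 exon bin, chr1:75124649-75124678, plus strand: taaaatacCCTGCAGGGGGCAGtaaggtcc
Bin near Tex264, chr9:106687419-106687448, plus strand: tcaagtgaCCACCAGGGGGCAAcagactcc
Bin near Nufip2, chr11:77673590-77673619, plus strand: cgtgtgcgCCAGAAGAGGGCACcagatctc
Gm42743 bin, chr3:96278512-96278541, plus strand: acagatgaCCACGAGATGGCGCcagcgagt
Scarna2 bin, chr3:108554858-108554887, minus strand: cctccgagCCACTAGGTGGCAGaagagaat

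The IAA data were the deeper of the H3K27ac data sets by the contacts that the authors' model implies, and gave the shorter list. These model contacts were derived here as the median, over listed pairs, of predicted contacts divided by model probability. They were 14629323 after IAA and 12551236 without treatment, while the lists held 28210 and 36274 bin pairs. The median ratio of Coverage over the 16828 bins in both lists, IAA over untreated, was 1.15, and Coverage after IAA was divided by it. Summed contacts were scaled in the same way by their median ratio of 0.902. Every log2 ratio below is therefore relative to the median bin. The authors' bias values were read here as Coverage over the mean of like bins. The ratio of mean Coverage that they then imply was 1.17 for peak bins, equal to the ratio of model contacts, and 1.31 for bins without a peak. Against the latter, all log2 ratios of Coverage would be lower by 0.19. In pooled cells, fewer cells with the mark at a bin and less of the mark per cell cannot be told apart. The labelled cell type was checked at the start sites of 8 embryonic stem cell markers, all of which were anchor bins in both lists, as were 23.7% of all 21840 protein-coding genes. Of 4 endoderm and 3 ectoderm markers, 0 had a start site in an anchor bin of either list, and 2 of 4 mesoderm markers (Eomes and Tbx6) and 1 of 4 fibroblast markers (Col1a1) were anchors in the untreated list and not in the IAA list. Of all protein-coding genes, 31.2% had a start site in an anchor bin of the untreated list and 28.0% in one of the IAA list.

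Among the bins in both lists, few differed in the ratio of H3K27ac Coverage from the median bin by 1.5-fold or more. Of 16746 bins with a Coverage of 200 or more in each list, 53 (0.316%) were at least 1.5-fold higher after IAA and 27 (0.161%) at least 1.5-fold lower. The middle 50% of bins in both lists had log2 ratios between -0.11 and 0.12. The split between higher and lower bins depended on the scaling, with 38 higher and 34 lower when Coverage was scaled by model contacts, and 7 higher and 174 lower when it was scaled by the mean of bins without a peak, which left 16.0% of bins with a ratio above 0. It also depended on the Coverage minimum, with 26 higher and 24 lower at a Coverage of 1000 or more in each list.

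The highest log2 ratio of Coverage was at an intergenic bin 1.08 kb from the start site of Tex264, which encodes a receptor for autophagy of the endoplasmic reticulum. Its Coverage was 2446 untreated and 6443 after IAA, which is 5613 after scaling and 2.29-fold higher (log2 ratio 1.20, 95% counting interval 1.13 to 1.27). The bin lies at chr9:106686001-106688000, is an anchor in the CTCF and RAD21 lists and holds the core match printed above. It had 2 partners untreated and 3 after IAA.

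An intergenic bin 48.4 kb from Ythdc1, the gene of a nuclear reader of RNA methylation, went from a Coverage of 881 to 2164 (log2 ratio 1.10) and from 1 partner to 2. It is in neither the CTCF nor the RAD21 list, and 63.2% of its bases are repeats. A bin in an intron of Grik2, the gene of a glutamate receptor subunit, had a Coverage of 461 and 972 (log2 ratio 0.88) with the same number of partners, 1, in both lists. Next in order were a bin in an intron of the formin gene Diaph1 (log2 ratio 0.87), an intergenic bin 13.2 kb from Nufip2 (0.86) and a bin in an intron of the dynein gene Dnah8 (0.79). Bins within 10 kb of a named bin were left out of this order. None of these 6 bins holds a protein-coding start site, and in every case the interval of the log2 ratio lay above 0.58, the value of a 1.5-fold difference.

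The lowest log2 ratio of Coverage was at an intergenic bin 72.9 kb from Map4k3, a kinase gene, at chr17:80800001-80802000. Its Coverage was 2853 untreated and 1285 after IAA (log2 ratio -1.35, interval -1.45 to -1.25), its partners went from 4 to 2 and its summed contacts from 73 to 22. It lies in neither the CTCF nor the RAD21 list. The start-site bin of Comtd1, the gene of a methyltransferase-like protein, followed with a Coverage of 2717 and 1393 (log2 ratio -1.16).

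The start-site bin of Mtf1, the gene of the metal-responsive transcription factor, had a Coverage of 4571 untreated and 3095 after IAA (log2 ratio -0.76). Its partners went from 10 to 3 and its summed contacts from 139 to 44, and 8 of the 10 untreated partners lay on the side that its core motif faces. A bin in Tbx3os1, a noncoding gene, 85.7 kb from the start site of Tbx3, had a Coverage of 1967 and 1327 (log2 ratio -0.77), with 9 partners untreated and 2 after IAA. Bins in Scarna2 (log2 ratio -0.84), a small RNA gene of Cajal bodies, and in the uncharacterised gene Gm42743 (-0.77) complete the 6 largest, taken with none within 10 kb of another. Apart from the bin near Map4k3, all of them are anchors of the CTCF list.

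**Figure D1:**
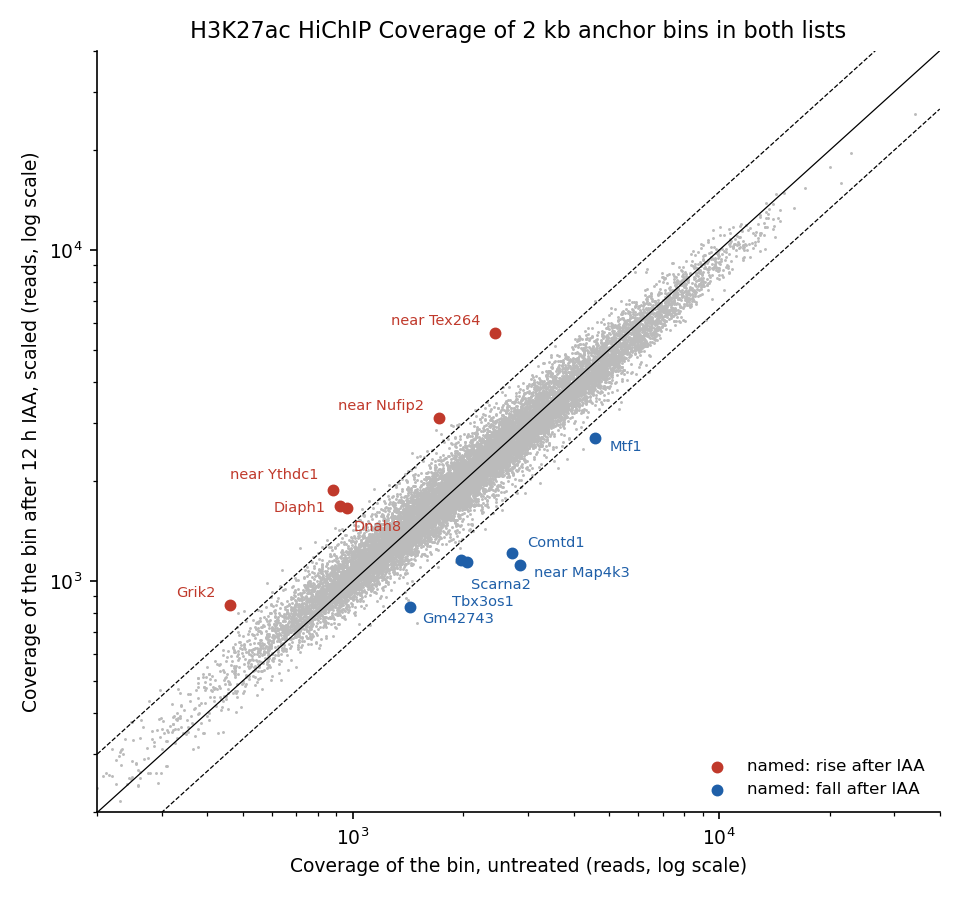
Coverage of each anchor bin untreated (x axis, reads, log scale) against scaled Coverage after 12 h IAA (y axis, reads, log scale) for the 16746 bins with 200 reads or more in each list. The solid line marks equal values and the dashed lines a 1.5-fold difference. The grey cloud follows the line of equal values, 53 bins lie at or above the upper dashed line and 27 at or below the lower, and the 12 coloured bins are those with the largest rise and fall that are named in the text.

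The 53 higher and 27 lower bins differed in kind, as a description of sets chosen by their Coverage. Of the higher bins 1 held a protein-coding start site and 15 were in the CTCF list, against 6 and 14 of the lower bins. Over all bins tested, 29.6% held a start site and 25.9% were in the CTCF list. The median untreated Coverage was 964 in the higher bins and 2556 in the lower bins, against 1963 over all. Partners were more numerous after IAA in 24 and fewer in 10 of the 53, and more numerous in 0 and fewer in 25 of the 27. The median number of untreated partners was 1 in the higher bins, 5 in the lower bins and 2 over all bins tested. A bin in both lists with 1 untreated partner cannot have fewer, and these sets were not matched for partners. Across all bins in both lists, 20.7% had more and 41.3% fewer partners.

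The bins were next described by start site and by presence in the CTCF list, which are properties that neither H3K27ac list defines. The CTCF list has 1 kb bins, and a 2 kb H3K27ac bin was counted as in the CTCF list when it contained an anchor of it. Of the 16828 bins in both lists, 2222 held a protein-coding start site and a CTCF-list anchor, 2733 a start site only, 2115 a CTCF-list anchor only and 9758 neither. The median log2 ratio of Coverage was -0.10 (95% interval -0.11 to -0.10) in bins with both, -0.06 with a start site only, -0.02 with a CTCF-list anchor only and 0.05 (0.04 to 0.05) with neither. Coverage was thus lower in the classes with a start site, and the share of bins below 0 was 76.6%, 65.5%, 53.1% and 38.9% in the same order.

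Contacts followed a different order. The median log2 ratio of summed contacts was -0.15 (-0.20 to -0.12) in bins with a start site and a CTCF-list anchor and -0.16 (-0.20 to -0.12) in bins with a CTCF-list anchor only. It was -0.03 (-0.07 to 0.00) in bins with a start site only and 0.07 (0.05 to 0.09) in bins with neither. The 0 of these ratios is set by the scaling to the median bin and is not a value of no change. Summed contacts were at least 2-fold lower in 11.6% and at least 2-fold higher in 9.55% of all bins. The lower share was 15.2% and 16.8% in the classes with a CTCF-list anchor, and 10.4% and 9.90% in those without.

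Mean numbers of partners were also lower by the most in the classes with a CTCF-list anchor. Bins with a start site and a CTCF-list anchor had 4.28 partners on average untreated and 3.39 after IAA, a difference of -20.8%. Bins with a CTCF-list anchor only had 4.29 and 3.25 (-24.3%). With a start site only the means were 3.22 and 2.79 (-13.3%), and with neither they were also 3.22 and 2.79 (-13.4%). The farthest partner was nearer after IAA in 37.4% of all bins and farther in 26.1%. Among bins whose farthest distance differed, it was nearer in 67.2% of those with a CTCF-list anchor only, against 59.0%, 56.9% and 57.4% in the classes with both, with a start site only and with neither. The farthest distance is the largest over the listed partners, and these shares were not taken at equal changes in partners. The median farthest distance went from 50 to 30 kb in bins with a CTCF-list anchor only, from 76 to 61 kb in those with both, and from 48 to 46 kb and 26 to 24 kb in the others.

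**Figure D2:**
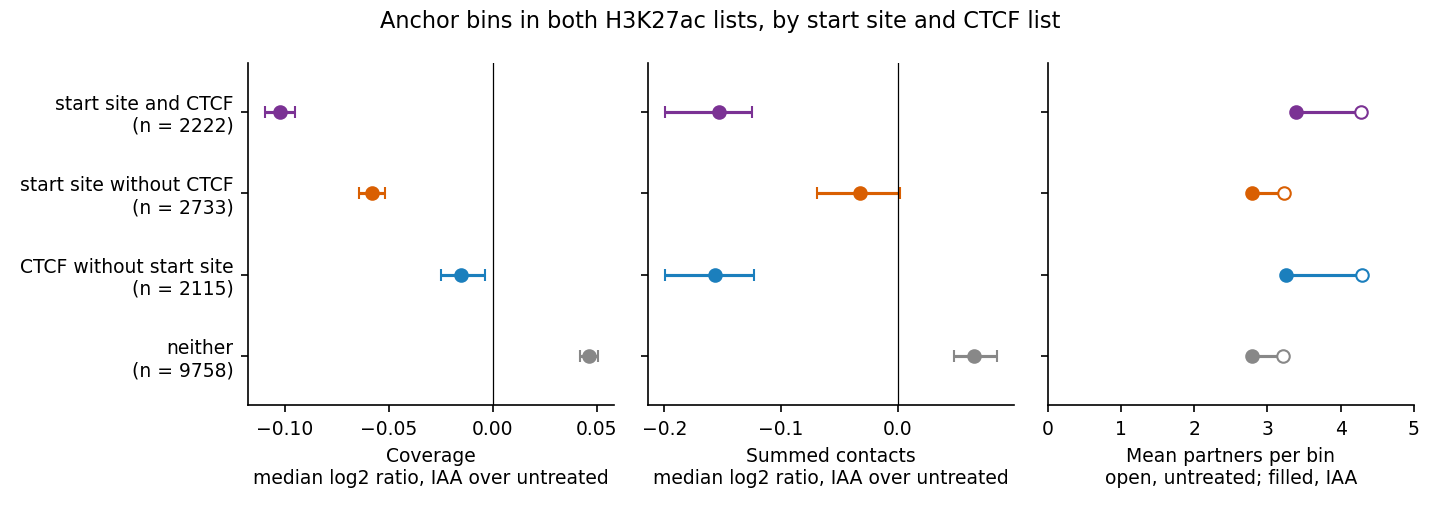
Median log2 ratio of scaled Coverage (left), median log2 ratio of scaled summed contacts (middle) and mean number of partners (right, open circles untreated, filled circles 12 h IAA) in 4 classes of anchor bins in both lists. Bars are 95% order-statistic intervals of the median over bins, and 0 is the median bin. Coverage is lowest in the classes with a start site, at -0.10 and -0.06, while contacts are lowest in the classes in the CTCF list, at -0.15 and -0.16.

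The differences in Coverage and contacts had the same sign on every chromosome, and some of the others did not. On each of 20 chromosomes, the CTCF-list bins had a lower median log2 ratio of Coverage than the other bins (by -0.13 to -0.04), a lower median log2 ratio of contacts (by -0.37 to -0.03) and a larger loss of partners (mean changes apart by -1.11 to -0.10). Start-site bins had lower Coverage (by -0.23 to -0.06) and contacts (by -0.24 to -0.01) than bins without a start site on 20 of 20 chromosomes. Their mean change in partners was lower on 14 and higher on 6. The share of bins with a nearer farthest partner was higher in CTCF-list bins on 17 chromosomes and lower on 3, and the share listed again was higher on 15 and lower on 5. In start-site bins the first share was higher on 9 and lower on 11, and the share listed again was higher on 20 of 20. Chromosomes are not replicates of the treatment, and the counts describe how evenly the pattern was spread. Over the whole genome the CTCF-list difference in mean partner change was -0.53, and -0.33 when both lists held one number of pairs. The start-site difference in contacts was -0.13, and -0.04 when it was taken within 4 bands of untreated Coverage, where the CTCF-list difference in contacts was -0.14. The CTCF-list difference in Coverage was -0.09, and -0.04 within 4 bands of GC content.

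**Figure D3:**
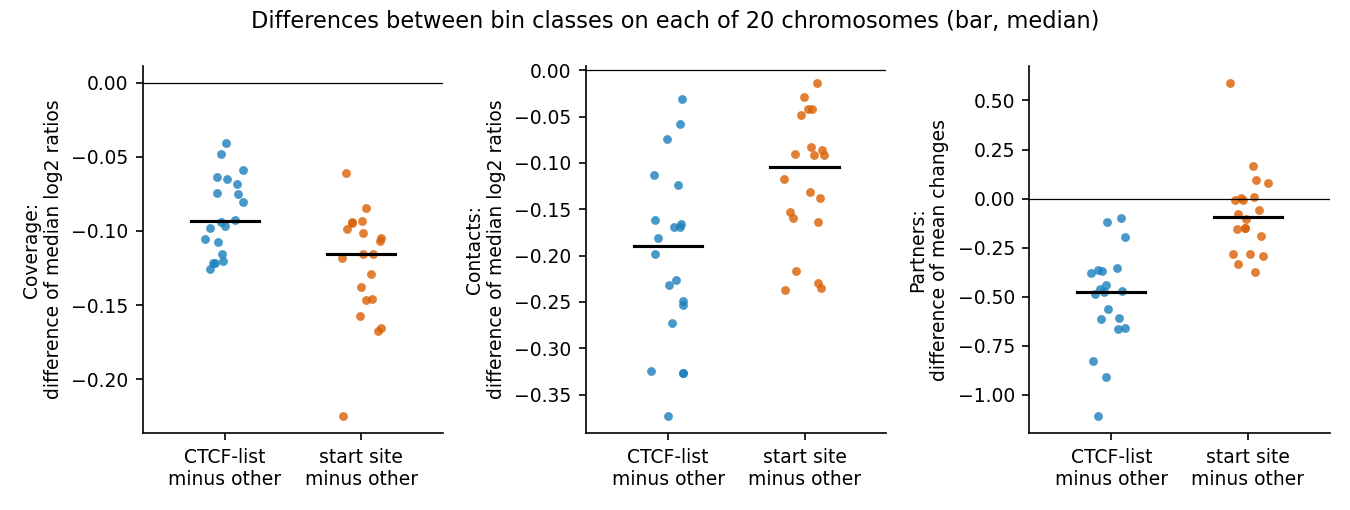
Differences between bin classes on each of 20 chromosomes, 1 point for each chromosome and a bar at the median: median log2 ratio of Coverage (left), median log2 ratio of contacts (middle) and mean change in partners (right), for CTCF-list bins minus other bins and start-site bins minus other bins. Every point lies below 0 for Coverage and contacts, while for partners the start-site points lie on both sides of 0.

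The Coverage difference moved with base composition. Across the 16828 bins the log2 ratio of Coverage had a Spearman correlation of -0.45 with GC content, 0.29 with the share of repeats and -0.36 with untreated Coverage, which also stands in the ratio. The bins share libraries and are not independent, so these are descriptions. When the bins were split into 4 bands of GC content of about equal size, the median log2 ratio was 0.13 in the lowest band and -0.09 in the highest. Over the bins in either list, those with a start site had a median GC content of 53.0% and the others of 47.2%. Within the bands the start-site difference in Coverage was -0.11, -0.09, -0.06 and -0.02 from the lowest GC content to the highest, and the part of GC content in it was not tested. The CTCF-list difference in Coverage was -0.04, -0.03, -0.04 and -0.04 over these bands, smaller in each than over all bins. The CTCF-list difference in contacts was -0.16, -0.15, -0.15 and -0.16 over the same bands, nearly the same in size at every GC content, while the start-site difference in contacts was between -0.06 and 0.01. Across bins, the log2 ratio of Coverage had a Spearman correlation of 0.34 with that of summed contacts, which share the reads of the same libraries.

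Whether an untreated bin was an anchor at all after IAA differed between the same classes, in an order unlike that of Coverage or contacts. The share listed again was 74.4% with a start site and 57.5% without, but 62.5% in the CTCF list and 61.3% outside it. Of the untreated anchor bins 61.6% were listed again after IAA, and of the IAA bins 72.9% had been listed without treatment. The share listed again was 76.0% (74.4 to 77.5) in bins with a start site and a CTCF-list anchor, 73.1% with a start site only, 58.7% with neither and 52.6% (51.1 to 54.2) with a CTCF-list anchor only. The number of untreated partners differed between these classes, so the shares were also taken within it. Among bins with 1 untreated partner, 29.2% of those with a CTCF-list anchor only were listed again, against 52.0%, 53.8% and 39.7% in bins with both, with a start site only and with neither. Among bins with 3 to 4 partners the CTCF-only share was 72.9%, and the others lay between 88.9% and 90.0%. With 5 or more partners it was 94.1%, against 97.6% to 98.4%.

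Bins missing from a list were mostly weak anchors. Of the bins in the untreated list only, 78.9% had a single partner, against 33.8% untreated in the bins of both lists, and of those in the IAA list only, 88.0% had a single partner. The median Coverage was 1076 reads in the bins of the untreated list only, against 1955 untreated in the bins of both lists. It was 1192 reads in the bins of the IAA list only, against 2250 after IAA in the bins of both. Counted over all bins, listed again or not, the number of anchor ends after IAA was 62.0% of the untreated number in bins with a CTCF-list anchor only, 75.2% in those with both, 82.4% with a start site only and 82.0% with neither.

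The share of anchors listed again was lower in bins with more Coverage in the CTCF list of untreated cells. CTCF-list bins were split into 3 bands of about equal size by their Coverage in the CTCF list. From the low band to the high band, 73.9%, 64.7% and 49.6% of the untreated bins were listed again, and anchor ends after IAA were 81.4%, 72.0% and 50.4% of the untreated number. The median log2 ratio of contacts in the bins of both lists was -0.06, -0.17 and -0.33. The log2 ratio of H3K27ac Coverage showed no such order, at -0.06, -0.08 and -0.06. The core motif was found in 13.4%, 32.4% and 68.2% of the bins in these bands. In bins without a start site, the anchor ends after IAA were 77.3%, 67.8% and 46.4% of the untreated number in the low, middle and high band.

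RAD21 separated the CTCF-list bins further. In bins of both lists the median log2 ratio of contacts was -0.24 (-0.28 to -0.21) where CTCF and RAD21 anchors were present, -0.06 (-0.10 to -0.02) where only CTCF was listed and -0.09 (-0.14 to -0.06) where only RAD21 was. Anchor ends after IAA were 63.0%, 78.5% and 80.1% of the untreated number in the same order. RAD21 anchors were mapped in untreated cells, and their position after IAA was not analysed here.

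Partners of CTCF-list bins also differed by the direction of the motif. In 2763 of them the core motif lay on 1 strand only, which gives the bin a side that the motif faces and a side behind it. Without treatment 4612 partners lay on the facing side and 2651 behind, a facing share of 63.5% (62.4 to 64.6). After IAA there were 2249 and 1841, a facing share of 55.0% (53.5 to 56.5). Facing partners thus decreased by 51.2%, and partners behind decreased by 30.6%. The facing side had the larger percentage decrease on 20 of 20 chromosomes. In 1812 anchor bins with the same motif but outside the CTCF list, the facing share was 47.8% (46.1 to 49.5) untreated and 49.8% (47.9 to 51.7) after IAA, a difference of -17.3% on the facing side and of -23.7% behind.

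The difference between the sides was larger at longer distances. After IAA the number of partners within 20 kb differed from the untreated number by -24.8% on the facing side and -22.2% behind. From 20 to 50 kb the values were -47.9% and -33.6%, from 50 to 100 kb they were -63.5% and -43.5%, and at 100 kb or more they were -68.5% and -30.4%. At 100 kb or more, 1134 facing partners were listed untreated and 357 after IAA, against 385 and 268 behind. The median distance of a facing partner went from 48 to 28 kb, while that of a partner behind went from 26 to 24 kb.

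**Figure D4:**
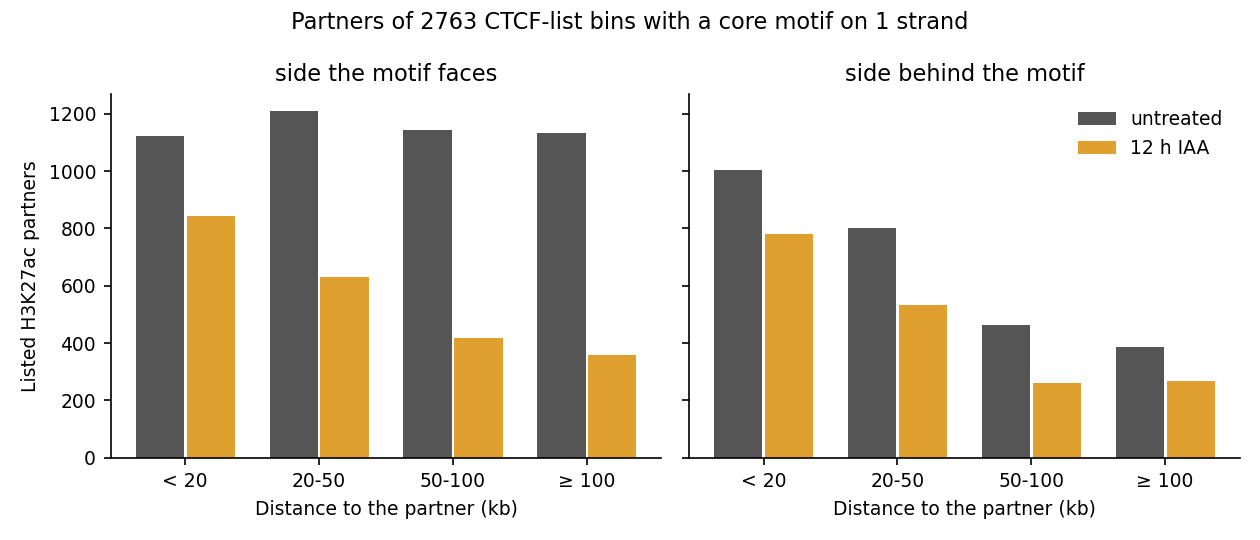
Number of listed H3K27ac partners of the 2763 CTCF-list bins with a core motif on 1 strand (y axis, linear from 0), by distance to the partner in kb (x axis), on the side that the motif faces (left) and behind it (right), untreated (grey) and after 12 h IAA (yellow). Facing partners at 100 kb or more go from 1134 to 357, while those behind go from 385 to 268.

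The sidedness was larger away from start sites and at bins with more Coverage in the CTCF list. In CTCF-list bins without a start site the facing share was 67.8% untreated and 57.3% after IAA, and the number of partners differed by -57.6% on the facing side and -33.6% behind. With a start site the shares were 55.9% and 51.9%, and the differences -37.4% and -26.6%. In the low band of CTCF Coverage the differences were -21.6% on the facing side and -25.8% behind, in the middle band -41.0% and -28.2%, and in the high band -60.3% and -33.7%. Where the bin was not in the RAD21 list they were -22.7% and -24.4%, and where it was they were -56.8% and -32.7%.

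Single bins with the largest differences in partners included promoters of well-known genes. The start-site bin of Bcl2l1, which encodes the anti-apoptotic protein BCL-XL, had 27 partners untreated and 9 after IAA, all of them on the side that its core motif faces. Its summed contacts were 422 and 157 and its Coverage 5234 and 4950 (log2 ratio -0.28). The start-site bin of Irf2bpl, the gene of a zinc-finger regulator, went from 27 partners to 13, and a bin in an exon of Cnot10, a subunit gene of the CCR4-NOT complex, from 25 to 11. All 3 are anchors of the CTCF and RAD21 lists, and the log2 ratio of Coverage was -0.31 at Irf2bpl and -0.19 at Cnot10. An intergenic bin 39.5 kb from Apol7a, in neither list, went from 30 partners to 14.

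Gains of partners were smaller. A bin in an exon of Gdf3, the gene of a growth factor of the TGF-beta family that is made in embryonic stem cells, had 35 partners untreated and 46 after IAA, with summed contacts of 639 and 1023 and a log2 ratio of Coverage of 0.04. A bin in an intron of Sfi1, a centrosome gene, went from 20 partners to 29. The start-site bin of Rif1, a regulator of replication timing, went from 8 to 17, with 98 and 291 contacts. A bin 18.7 kb from the start site of Scd1, which encodes a fatty acid desaturase, went from 5 to 14. The bin near Scd1 is in the CTCF and RAD21 lists and the other 3 are in neither. In all 4 the log2 ratio of Coverage lay between 0.04 and 0.14.

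By log2 ratio among bins with 50 contacts or more over both lists, summed contacts were lowest after IAA at the start-site bin of Deptor, which encodes an inhibitor of mTOR. It had 145 contacts with 10 partners untreated and 9 contacts with 1 partner after IAA, while Coverage went from 3367 to 2718 (log2 ratio -0.51). A bin in an exon of Slc23a3, a transporter gene, had 102 and 8 contacts and a log2 ratio of Coverage of -0.27. All 9 of its untreated partners lay on the side its core motif faces, and 0 were listed on that side after IAA. A bin 10.6 kb from Sync, an intermediate filament gene, had 112 and 9 contacts at a log2 ratio of Coverage of -0.01, and the start-site bin of Cdipt, a phosphatidylinositol synthase gene, had 145 and 12 at -0.41. All 4 are in the CTCF list.

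The 4 highest log2 ratios of contacts, taken with none within 10 kb of another, were at bins outside the CTCF list, each with 8 or 9 contacts untreated. In number of contacts, the differences at Gdf3, Rif1 and the bin near Scd1 given above were larger. The start-site bin of Ecm1, an extracellular matrix gene, had 9 contacts with 1 partner untreated and 77 contacts with 6 partners after IAA, at a Coverage of 1451 and 2088 (log2 ratio 0.33). A bin 4.79 kb from Piga, an enzyme gene of GPI anchor synthesis, had 8 and 66 contacts, the start-site bin of Tmem253 had 9 and 72, and a bin in an intron of Rabif had 9 and 70. An unlisted pair counts as 0 contacts in either list. These differences, and the falls in contacts and differences in partners given above, may therefore include pairs that had contacts but were not called.

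Differences in the farthest partner were ranked only where the farthest pair had at least 10 contacts in the list where it was farther. The largest approached or passed a megabase at a few bins, each on the strength of 10 to 12 contacts in that list. At the start-site bin of Eif4g2, a translation factor gene, the farthest partner was at 54 kb untreated and at 1022 kb after IAA. At that of Arrdc3, an arrestin-domain gene, it was at 10 kb and 770 kb, and at a bin 25.7 kb from Olfr1423 at 6 kb and 784 kb. In the opposite direction, the bin with the start sites of the histone genes Hist1h2ah and Hist1h2bk and a bin 22.9 kb from Abt1 were each other's farthest partner untreated, joined over 1366 kb by 1 pair of 10 contacts, and had their farthest partner at 6 kb and 102 kb after IAA. A bin in Gm48926, 21.3 kb from the start site of Rad21, went from 1112 kb to 28 kb.

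Start sites of pluripotency genes, the transcription factors and associated genes that maintain embryonic stem cells, were next looked up in the lists. Of 22 genes, 17 had a start-site bin in both lists (for a gene with several, the listed bin with the most Coverage), against 23.7% of all protein-coding genes by the same rule. A further 2 (Stat3 and Tcl1) were in the untreated list only and 3 (Utf1, Lin28a and Nr0b1) in neither. The untreated list thus held 19 of the 22 and the IAA list 17, against 31.2% and 28.0% of all protein-coding genes. Among the 17, Coverage was below the median ratio in 13, as it was in 70.5% of all 4955 start-site bins. The median log2 ratio was -0.16, against -0.08 over all. In start-site bins with an untreated Coverage of 3170 or more it was -0.13 with a CTCF-list anchor and -0.10 without. Partners were fewer in 12, more in 2 and equal in 3, and their sum went from 163 to 127. Over all start-site bins, 44.4% had fewer, 21.0% more and 34.6% an equal number. Among start-site bins with 9 or more partners summed over both lists, 66.6% with a CTCF-list anchor and 57.1% without had fewer. The shares over all start-site bins are thus no matched reference for number of partners or Coverage, here or for the gene lists below. None of the 17 passed the 1.5-fold threshold on Coverage.

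Sox2, a core factor of the pluripotency network, had a Coverage of 8354 and 7867 (log2 ratio -0.29) and went from 16 partners to 10, with 335 and 185 contacts. Its start-site bin is in neither the CTCF nor the RAD21 list. Tbx3, a T-box factor, had the lowest log2 ratio of the list at -0.34 and went from 21 partners to 14. At Pou5f1, which encodes OCT4, Coverage was 5994 and 6048 (log2 ratio -0.19), partners went from 12 to 8 and the farthest partner from 84 to 22 kb. A start-site bin of the nuclear receptor gene Esrrb went from 15 partners to 9 at a log2 ratio of -0.25, and its farthest partner was at 38 kb untreated and 446 kb after IAA.

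Among members with fewer untreated partners, Nr5a2 went from 4 to 1, Prdm14 from 3 to 1, Klf5 from 4 to 2 and Sall4 from 2 to 1. Nanog, a homeobox factor, had 21 and 18 partners at a log2 ratio of -0.12, with the farthest at 366 kb in both lists. Klf4, a Krüppel-like factor, had 7 and 6 partners at 0.03, and Tfcp2l1 had 10 and 10 at 0.03. Dppa3, a gene of the egg and the early embryo, stood apart from the others with a Coverage of 958 and 1579 (log2 ratio 0.52, interval 0.40 to 0.64), 2 and 5 partners, and 30 and 87 contacts. The 17 genes thus lay between -0.34 and 0.04 apart from Dppa3.

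**Figure D5:**
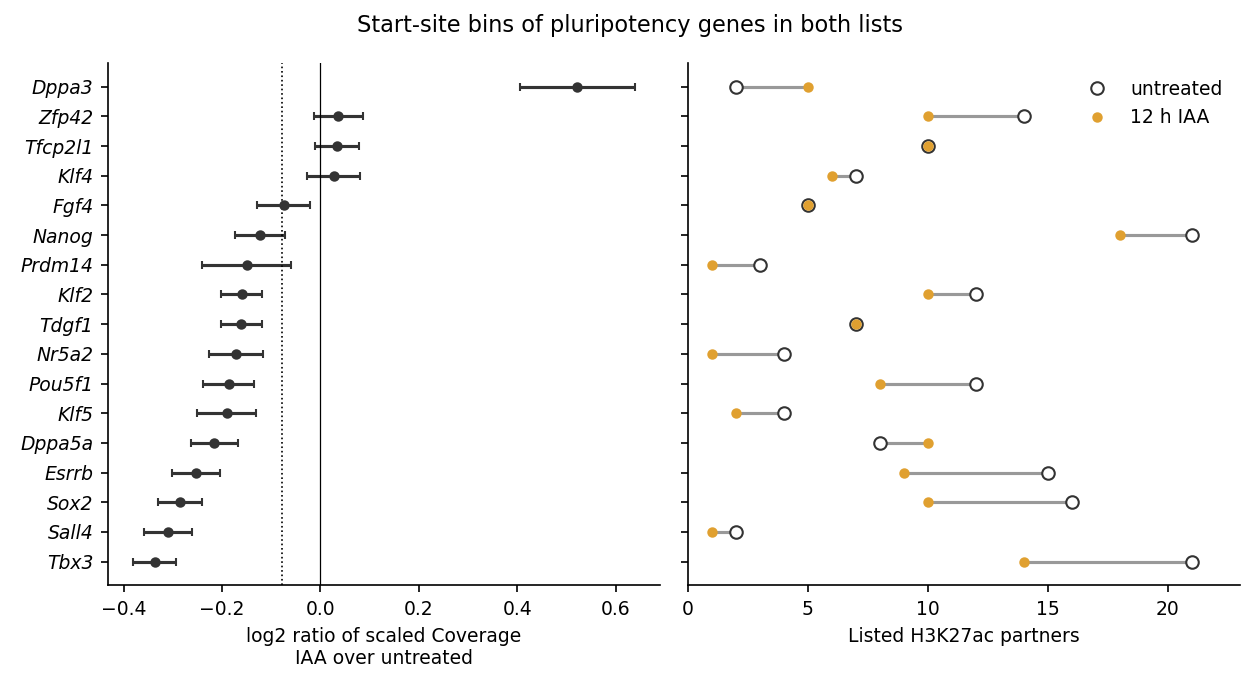
Log2 ratio of scaled Coverage with its 95% counting interval (left) and number of listed partners untreated (open) and after 12 h IAA (filled) (right) for the start-site bins of 17 pluripotency genes in both lists, ordered by Coverage ratio. The dotted line is the median of all start-site bins, -0.08. Dppa3 lies at 0.52 and the others between -0.34 and 0.04, and partners are fewer in 12 of 17.

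Genes of the signalling pathways were also looked up. Of 11 genes of FGF and ERK feedback, 4 had a start-site bin in both lists, where 23.7% of all protein-coding genes had one, and all 4 were below the median ratio of Coverage, where 70.5% of all start-site bins lay. Etv4, an ETS factor, had the lowest log2 ratio at -0.58 (5649 and 4350 reads), Spred2, an inhibitor of the pathway, went from 10 partners to 8, and Etv5 from 12 to 9. Dusp4, a phosphatase that acts on ERK, and Myc were listed after IAA only, with 1 partner each, and 3 genes were listed untreated only: Dusp6, a further ERK phosphatase, with 1 partner, and Spred1 and the immediate early gene Egr1 with 2 each. The untreated list thus held 7 of the 11 and the IAA list 6, against 31.2% and 28.0% of all protein-coding genes. Of 9 targets of Wnt and LIF, 4 were in both lists, beside the same 23.7% of all protein-coding genes. Socs3, the feedback inhibitor of LIF signalling, went from 13 partners to 3 and from 233 contacts to 77 at a log2 ratio of Coverage of -0.25, and it is in the CTCF and RAD21 lists. Axin2, a negative regulator of Wnt signalling, had 2 and 3 partners and a log2 ratio of 0.25. Of these 4 targets, 3 had fewer partners and 1 more, against 44.4% and 21.0% of all start-site bins. The sum of their partners went from 20 to 8.

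Genes of CTCF and cohesin were anchors in both lists for 11 of 12, against 23.7% of all protein-coding genes, with Nipbl, the loader of cohesin, in neither. At Ctcf itself Coverage was 5936 and 7800 (log2 ratio 0.20) while partners went from 5 to 2 and the farthest partner from 224 to 30 kb. Rad21 went from 4 partners to 6, Stag1, a cohesin subunit gene, from 9 to 5, and Mau2, which encodes a partner of the loader, from 4 to 1. Ddx5, an RNA helicase gene included in the list, had 10 partners in each. In all, 6 of the 11 had fewer, 1 more and 4 an equal number, against 44.4%, 21.0% and 34.6% of all start-site bins.

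Of 20 genes of later lineages, 5 had a start-site bin in the untreated list and 3 in both, against 31.2% and 23.7% of all protein-coding genes. Tfap2c, a factor of trophectoderm and germ cells, went from 9 partners to 4 (log2 ratio of Coverage -0.26), Otx2, a factor of the epiblast and anterior neural tissue, had 2 and 2, and Nes, the gene of the progenitor filament nestin, 1 and 1. Eomes and Tbx6, mesoderm factors, were in the untreated list only. A list of ribosomal protein genes was taken by symbol (Rpl or Rps and a digit, with Rplp0, Rplp1, Rplp2 and Rpsa and without the Rps6k kinases), which also takes in Rps19bp1, the gene of a binding protein, and paralogues of restricted expression such as Rpl3l, Rpl10l and Rpl39l. Of its 86 genes 69 were in both lists, against 23.7% of all protein-coding genes, with a median log2 ratio of Coverage of -0.08, the value over all start-site bins. Among these, 39 had fewer partners, 12 more and 18 an equal number, against 44.4%, 21.0% and 34.6% of all start-site bins, and the sum went from 358 to 281.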

How the data were processed

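Values are from deposited interaction lists of 9 MNase HiChIP libraries, 1 pooled list for each of 4 groups. Per the submitters' processing notes, reads were processed with Trim Galore, BWA, MACS2 and deepTools on mm10, with no versions. The interaction caller is not given in the sources used here, and the columns have the FitHiChIP layout. Per the file headers, each bin pair has a deposited contact count, the Coverage and bias of both bins, a model probability, a p-value and a q-value. Coverage values are whole counts, and the model probability was deposited as a fraction. The headers do not define the bias, which was read here as the ratio of Coverage to the mean of like bins (peak or no peak). All deposited q-values were under 0.05.

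Python 3.11.15 with numpy 2.4.6, pandas 2.3.3 and scipy 1.17.1 was used. Coverage and summed contacts after IAA were divided by their median ratio over bins in both lists. Start sites came from GENCODE M21 protein-coding transcripts, sequence from GRCm38. Intervals are 95% Wilson (shares), order-statistic (medians) or exact binomial (ratios of 2 counts). Those of ratios are for counting error alone, as PCR copies could not be told from separate molecules, and those of shares and medians treat bins as independent. Named bins are those with the largest differences (log2 ratios for Coverage and contacts) among bins with a Coverage of 200 or more in each list. These are 6 up and 6 down for Coverage, and 4 each for partners and contacts (50 contacts or more over both lists). For the farthest partner they are 3 each, with at least 10 contacts on the farthest pair in the list where it is farther. Within a ranking none is within 10 kb of another, and fixed gene lists stand beside them. Scripts were tested on simulated data. Members and lists were chosen with earlier results of these data known. Alternatives covered the list threshold and length, contact minimum, peaks, scaling, bin classes and sex chromosomes.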

Additional observations from a re-analysis of the deposited data

How the results depend on the processing

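No paired analysis was possible because each list is pooled over its replicates, and for that reason no alternative leaves out a replicate. Of 13 planned results, 4 are counts or shares that have no sign. Of the other 9, 7 kept their sign under every alternative run, and 2 on start-site bins did not. Differences are CTCF-list or start-site bins minus other bins, and the cause of each shift was not tested unless stated.

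The start-site difference in mean partner change was -0.094 and reversed to 0.015 with one number of pairs in both lists, to 0.14 within bands of untreated Coverage and to 0.0034 outside the CTCF list. It was -0.0063 within classes of partners over both lists. The start-site difference in the share with a nearer farthest partner was -1.53 percentage points and reversed to 0.033 within bands of untreated Coverage.

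The CTCF-list difference in partner change, -0.53, was -0.43 at a q-value of 0.01 or less, -0.33 with one number of pairs, -0.40 with at least 10 contacts, -0.43 within 1 bin of a CTCF anchor, -0.76 with RAD21 in place of CTCF, -0.38 within bands of untreated Coverage, -0.61 without start-site bins and -0.36 within classes of partners. Its contact difference, -0.20, was -0.17 with one number of pairs, -0.15 within 1 bin of an anchor, -0.24 with RAD21, -0.14 within Coverage bands and -0.15 within GC bands. Its Coverage difference, -0.087, was -0.074 at a Coverage of 1000 or more, -0.060 within 1 bin, -0.071 with RAD21, -0.065 within Coverage bands, -0.062 without start-site bins and -0.038 within GC bands. Its farthest-partner difference, 5.87 percentage points, was 9.82 without start-site bins.

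The start-site difference in contacts, -0.13, was -0.091 with one number of pairs, -0.038 within Coverage bands, -0.098 outside the CTCF list and -0.021 within GC bands. That in Coverage, -0.11, was -0.10 at a Coverage of 1000 or more, -0.11 with start sites of all gene types, -0.084 within Coverage bands, -0.10 outside the CTCF list and -0.070 within GC bands.

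Counts of higher and lower Coverage bins depended on the fold, with 807 and 405 past an absolute log2 ratio of 0.32 and 2 and 2 past 1. At a Coverage of 1000 or more 26 were higher and 24 lower, and with the scaling by bins without a peak 7 were higher and 174 lower. The share listed again, 61.6%, was 69.0% with one number of pairs, 64.1% with at least 10 contacts, 67.6% for peak bins and 77.1% when a bin within 1 bin counted. The share of IAA bins listed before, 72.9%, was 66.5%, 77.4% and 85.6% with one number of pairs, for peak bins and within 1 bin, and 74.3% at a q-value of 0.01 or less. The correlation of Coverage with contacts, 0.34, was 0.33 at a Coverage of 1000 or more.

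Added after seeing the data, the change on the facing side minus that behind was -20.7 percentage points, and -26.0 with one number of pairs. Anchor ends after IAA, as a percentage of the untreated number, differed by -31.0 percentage points between bands of CTCF Coverage (high minus low). The difference was -37.4 with one number of pairs and -26.8 with at least 10 contacts. The bands of GC content, the classes of partners and the scaling by bins without a peak were also added after seeing the data. The contact counts of single bins were small, and a median bin in both lists had 34 contacts untreated and 30 after IAA.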

Other observations

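Neighbouring bins were also looked at where at least 2 called Coverage differences of the same direction lay within 10 kb of each other, a view chosen after the values were seen. There were 5 such runs of higher and 2 of lower Coverage. Around the bin 48.4 kb from Ythdc1, 4 of 4 bins in both lists within chr5:86850001-86860000 were higher, with a summed Coverage of 4600 untreated and 9119 after IAA (log2 ratio 0.79 after scaling). The nearest coding start site to the middle of that run was that of Ugt2b34, a glucuronosyltransferase gene. A pair of bins in Fbxo36, an F-box gene, had 2622 and 4937 reads (log2 ratio 0.71).

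Around the bin near Map4k3, 3 of 3 bins within chr17:80800001-80810000 were lower, with 5761 and 3151 reads in sum (log2 ratio -1.07). At Cacng7, a gene of a calcium channel subunit, 2 bins had 8198 and 6112 reads (log2 ratio -0.62). The other 3 runs of higher Coverage lay near Gm8797 (log2 ratio 0.64), near Guca2a and Guca2b (0.69) and at AC131675.3 (0.50). Median shares of repeat bases over the runs of higher Coverage were 44.2% at Fbxo36, 42.9% near Ythdc1, 56.7% near Gm8797, 51.9% near Guca2a and Guca2b and 19.2% at AC131675.3, and over those of lower Coverage 10.9% near Map4k3 and 35.9% at Cacng7. Over all bins tested for Coverage the median was 20.5%.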
